A study of Mus musculus with 3 samples.

Results

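The 10 genes described here are the E2F transcription factors E2f1, E2f2, E2f3, E2f4, E2f7 and E2f8, their dimer partner Tfdp1, and the pocket proteins Rb1, Rbl1 and Rbl2. They were taken by symbol from the 32287 features of the count matrices, and all 10 had unique molecular identifiers (UMIs, which count single mRNA molecules) in all 3 libraries. Their levels were read by droplet single-cell RNA-seq in sorted mouse retinal cells, mostly Müller glia, the main glia of the retina. The study asked whether Müller glia re-enter the cell cycle, and what they then express, when cyclin D1 is supplied and the inhibitor p27Kip1, encoded by Cdkn1b, is knocked down.

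All mice carried Glast-CreERT2 and R26-CAG-LSL-Tdt, so that tamoxifen (75 mg/kg, daily from P20) marked Müller glia with tdTomato. Control eyes received AAV7m8-GFAP-GFP-LacZsh at P28, a virus that drives GFP from a GFAP promoter and carries a short hairpin against LacZ. CCA eyes received AAV7m8-GFAP-cyclin D1-p27sh mixed 9:1 with the control virus at P28, and CCANT eyes had in addition NMDA, which kills inner retinal neurons, at P35 and trichostatin A (TSA), a histone deacetylase inhibitor, at P37. Retinas were harvested at P51. Each group was 1 library, pooled from 2 to 4 retinas, so no comparison between groups has a replicate and no test was run. The intervals given below are 95% exact Poisson or binomial intervals and cover counting error only.

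The cells were those of the counts table of the whole series, 3758 in control, 3890 in CCA and 3278 in CCANT, with a median of 24236, 20710 and 20722 UMIs per cell. Between 2 and 8 cell barcodes were shared by any pair of libraries. The 8 Müller glia markers summed to between 23296 and 24889 CPM (UMIs for each 1000000 UMIs of all genes) in the 3 libraries, while the 10 rod markers stood at 381 in control, 1134 in CCA and 2157 in CCANT. The authors found a rod cluster and a rod-Müller glia cluster among these cells, the latter enriched in CCA and CCANT. They attribute them to leaky tdTomato in rods and to contaminating rod mRNA. Both are part of the sums over all cells. Leaving out cells with rod markers over 5000 CPM kept 88 member ratios within their counting intervals and moved 2. Cdkn1b, the target of the hairpin, had a control level of 226 CPM, against 84.4 after CCA and 106 after CCANT. Ccnd1, whose protein the vector supplies, was at 213, 136 and 129, and whether vector transcripts count toward it was not given in the sources used here. The libraries also differed in sex: 3505 control cells carried Y-linked transcripts and none Xist, 3859 CCA cells carried Xist and none Y-linked transcripts, and CCANT held 1183 and 1718 of either kind. Treatment and sex therefore cannot be told apart between CCA and control.

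Pocket proteins bind E2F factors and hold their target genes silent in resting cells. Kinases activated by D-type cyclins phosphorylate the pocket proteins, E2F factors are released, and genes for DNA replication are transcribed; p27Kip1 restrains these kinases. E2f1, E2f2 and E2f3 are the activators of this scheme, E2f4 acts mainly as a repressor with the pocket proteins Rbl1 (p107) and Rbl2 (p130), and E2f7 and E2f8 are repressors that bind DNA without a dimer partner or pocket protein. Several of these genes are themselves known targets of E2F factors, and Rb1 is a tumour suppressor of the retina.

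Promoters are shown because some members followed the cell cycle classes described further on and others did not. RefSeq promoters (GRCm38.p6, 250 bases before to 50 after a start) were found for 8 members, 11 windows in all. Windows were searched on both strands for the E2F words TTTCCCGC, TTTCGCGC, TTTGCCGC and TTTGGCGC. Of 32851 promoters of that length, 2.26% held at least 1 of these words, against 6 of the 11 member windows, which belong to 5 genes (Rbl1, E2f2, Tfdp1, E2f7 and E2f3). The 2 windows of Tfdp1 overlap and hold the same site. Counted by gene, 5 of 8 members held a word, against 2.6% of 27025 genes. No 2 words overlapped in a member window. The word is in capitals in the first 4 of these promoters, on the strand of the gene and 5′ to 3′, and the windows of E2f8 and Rbl2 held none.

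E2f7, chr10:110745189-110745488, plus strand: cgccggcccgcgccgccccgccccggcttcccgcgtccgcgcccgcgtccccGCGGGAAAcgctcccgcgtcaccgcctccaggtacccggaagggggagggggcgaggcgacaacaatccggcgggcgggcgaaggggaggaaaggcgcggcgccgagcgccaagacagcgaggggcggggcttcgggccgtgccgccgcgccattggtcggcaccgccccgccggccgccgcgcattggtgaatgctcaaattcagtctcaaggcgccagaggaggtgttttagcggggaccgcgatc
Rbl1, chr2:157204485-157204784, minus strand: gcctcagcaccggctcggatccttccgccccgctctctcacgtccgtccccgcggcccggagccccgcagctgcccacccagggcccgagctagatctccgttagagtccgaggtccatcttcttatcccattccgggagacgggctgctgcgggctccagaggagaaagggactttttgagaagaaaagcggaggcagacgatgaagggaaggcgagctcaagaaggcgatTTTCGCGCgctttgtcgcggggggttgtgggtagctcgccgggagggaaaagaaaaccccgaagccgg
Tfdp1, chr8:13338501-13338800, plus strand: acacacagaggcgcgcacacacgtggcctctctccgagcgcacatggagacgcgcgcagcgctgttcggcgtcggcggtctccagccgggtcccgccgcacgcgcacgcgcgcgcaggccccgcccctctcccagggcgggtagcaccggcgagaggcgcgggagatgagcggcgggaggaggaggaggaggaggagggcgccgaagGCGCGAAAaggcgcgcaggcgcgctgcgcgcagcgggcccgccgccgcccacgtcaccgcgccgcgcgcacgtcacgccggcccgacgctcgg
E2f3, chr13:29986014-29986313, minus strand: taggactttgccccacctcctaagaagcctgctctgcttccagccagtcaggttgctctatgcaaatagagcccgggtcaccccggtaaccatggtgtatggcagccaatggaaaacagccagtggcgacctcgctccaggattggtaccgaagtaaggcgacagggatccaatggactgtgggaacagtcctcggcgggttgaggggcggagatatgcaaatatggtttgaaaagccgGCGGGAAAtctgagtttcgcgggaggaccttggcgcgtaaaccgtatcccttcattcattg
E2f8, chr7:48881547-48881846, minus strand: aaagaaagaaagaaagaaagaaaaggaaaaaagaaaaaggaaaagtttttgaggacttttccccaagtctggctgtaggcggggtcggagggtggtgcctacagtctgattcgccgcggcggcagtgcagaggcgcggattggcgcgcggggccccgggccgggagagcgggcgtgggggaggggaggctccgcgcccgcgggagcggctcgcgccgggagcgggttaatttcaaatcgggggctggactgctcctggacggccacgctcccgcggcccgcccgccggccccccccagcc
Rbl2, chr8:91069807-91070106, plus strand: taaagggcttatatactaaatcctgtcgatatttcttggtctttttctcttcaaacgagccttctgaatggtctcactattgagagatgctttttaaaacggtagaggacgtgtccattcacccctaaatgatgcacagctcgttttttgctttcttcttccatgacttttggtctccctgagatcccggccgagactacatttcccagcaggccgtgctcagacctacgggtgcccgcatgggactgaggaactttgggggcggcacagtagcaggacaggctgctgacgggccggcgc

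The E2F word began 18 bases before the start of Rbl1, 11 before that of E2f3, 43 before that of Tfdp1 and 198 before that of E2f7, and 40 after one of the 2 starts of E2f2. The words TTTGAA and TTCGAA of the CHR element of G2/M genes were searched too. At least 1 of the 2 was in 19.2% of all promoters and in 4 of the 11 member windows, those of E2f8 (20 bases before the start), Rbl2 (201 before), E2f3 (23 before) and E2f2 (31 before its other start). The E2f1 window held neither word, but its RefSeq start lies inside the gene as GENCODE draws it (chr2:154559407-154569892), so the window does not cover that upstream start. These matches describe letters and not bound sites.

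Over all cells, E2f7 and E2f8 were nearly absent from the control library and present in both treated libraries, E2f1 and Rbl1 were higher after treatment, and Rb1 was lower. E2f7 had 1 UMI in control, 334 in CCA and 112 in CCANT, or 0.0105, 4.01 and 1.58 CPM, the unit of every level here. The log2 ratio was 8.58 (6.09 to 13.89) for CCA over control and 7.24 (4.73 to 12.55) for CCANT over control. E2f8 had 3, 272 and 101 UMIs, and its log2 ratios were 6.70 (5.14 to 8.99) and 5.50 (3.92 to 7.81). An antisense gene, 1700020G17Rik, overlaps the 3′ end of E2f7 (chr10:110745439-110787384), and the strand setting of the counting was not given in the sources used here.

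E2f1, the activator best known for driving replication genes, had 798 UMIs in control, 1365 in CCA and 1028 in CCANT, which are 8.36, 16.4 and 14.5 CPM. Its log2 ratios over control were 0.97 (0.84 to 1.10) and 0.80 (0.66 to 0.93). Rbl1 stood at 11.4, 19.8 and 14.4 CPM, with ratios of 0.80 (0.69 to 0.91) and 0.34 (0.22 to 0.47). Both genes thus had intervals above 0 in both treated libraries, and Rbl1 was lower in CCANT than in CCA. Tfdp1, the DNA-binding partner of the E2F factors, was at 16.3, 20.5 and 19.2 CPM, and E2f2 at 2.25, 3.21 and 2.75.

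Rb1 had 34181, 23290 and 19103 UMIs, or 358, 280 and 270 CPM. Both ratios lay below 0, at -0.36 (-0.38 to -0.33) for CCA and -0.41 (-0.43 to -0.38) for CCANT. E2f3 (39.4, 35.4 and 35.9 CPM) and Rbl2 (52.6, 47.3 and 50.9) were likewise highest in control, with a log2 ratio of -0.15 for CCA over control for each. In Y-linked cells of both libraries, the E2f3 ratio of CCANT over control was 0.006 (-0.095 to 0.106). E2f4 stood at 12.9, 14.5 and 13.9 CPM, with ratios of 0.16 (0.05 to 0.28) and 0.10 (-0.02 to 0.22). The order of the libraries was therefore CCA, CCANT, control for E2f1, E2f2, E2f4, E2f7, E2f8, Rbl1 and Tfdp1, and control first for Rb1, E2f3 and Rbl2. Within this order the interval of CCANT over CCA included 0 for E2f2, E2f3, E2f4 and Tfdp1, and that of CCANT over control for E2f4 and Rbl2.

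**Figure D1:**
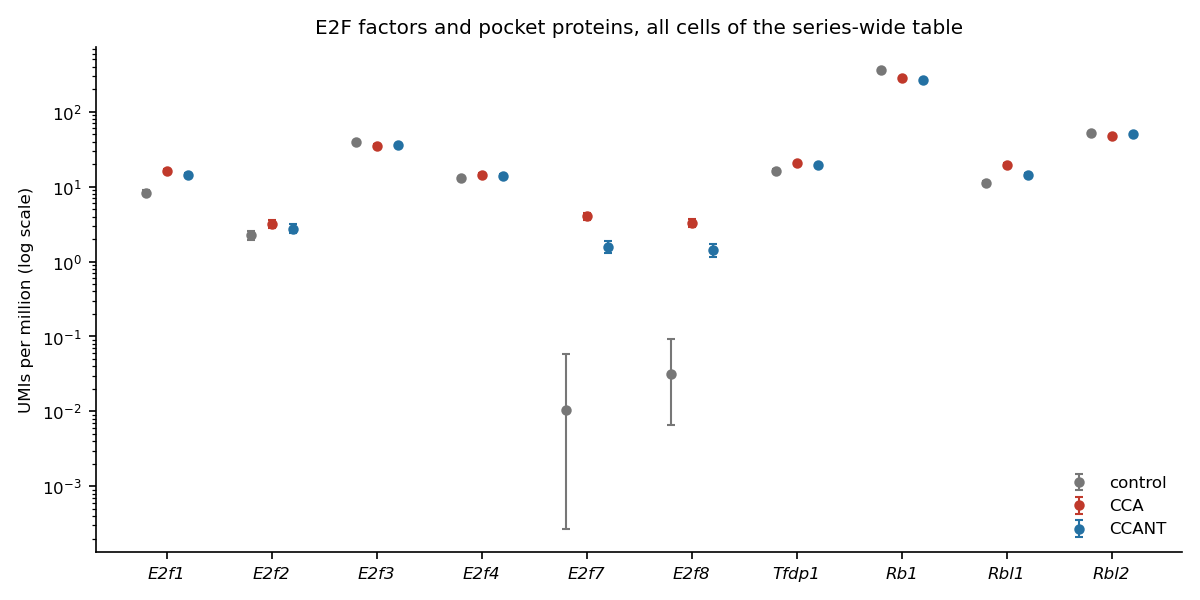
CPM (log scale) of the 10 genes over all cells of control, CCA and CCANT, 1 library each, with exact 95% Poisson intervals. E2f7 and E2f8 sit at 0.0105 and 0.0314 in control and above 1 in both treated libraries, whereas Rb1 sits at 358 in control against 280 and 270.

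Of the 10 members, 2 (E2f7 and E2f8) were at least 2-fold higher in CCA than in control and the same 2 in CCANT, and none was at least 2-fold lower. Among all genes with at least 50 UMIs in the compared sums, 5.81% were at least 2-fold higher and 1.04% lower in CCA, and 5.55% and 2.16% in CCANT. E2f7 and E2f8, with 1 and 3 UMIs in control, passed this limit only through the treated libraries. The median log2 ratio over the members was 0.42 in CCA and 0.26 in CCANT, beside 0.07 and 0.03 over all genes.

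To separate how many cells cycled from what each cell held, cells were thinned to 8000 UMIs and classed by S UMIs (Mcm2 to Mcm7, subunits of the replicative helicase) and G2/M UMIs (Mki67 and Top2a). Cells with at least 3 S UMIs and under 3 G2/M UMIs formed the S class, those with at least 3 of both the S-G2/M class, and those with at least 3 G2/M and under 3 S UMIs the G2/M class. Cells with 0 of both formed the class without cycle UMIs. As this holds after thinning, such cells can have S or G2/M UMIs at full depth. With all UMIs of a cell, 2167, 1575 and 1531 cells of control, CCA and CCANT had 0 of both, against 3132, 2441 and 2345 after thinning. The names refer to these UMIs and not to a measured phase. In CCA the S, S-G2/M and G2/M classes held 152, 61 and 100 cells, and in CCANT 64, 26 and 28, together 8.27% and 3.66% of the cells. Control had 12, 1 and 1, which is 0.376%, and its last 2 cells had Müller glia markers at only 637 and 740 CPM.

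Within cells without cycle UMIs (3132 in control, 2441 in CCA and 2345 in CCANT), the intervals of Rbl1, Tfdp1 and E2f2 came to include 0, while E2f1, Rb1 and E2f3, and at few UMIs E2f7 and E2f8, departed from control in both treated libraries. E2f1 stood at 8.59 CPM in the control library, 10.4 after CCA and 11.9 after CCANT, log2 ratios of 0.28 (0.12 to 0.45) and 0.47 (0.31 to 0.63). Rb1 stood at 358, 286 and 274, ratios of -0.33 (-0.36 to -0.30) and -0.39 (-0.41 to -0.36). E2f3 was lower by -0.36 (-0.44 to -0.27) in CCA and -0.16 (-0.24 to -0.07) in CCANT. E2f2 had ratios of -0.24 (-0.62 to 0.13) and 0.05 (-0.31 to 0.40), and with classes from all UMIs that of CCA was -0.51 (-1.01 to -0.03). Rbl1 stood at 11.3, 11.2 and 11.4 CPM, and Tfdp1 had ratios of 0.01 (-0.11 to 0.14) and 0.09 (-0.04 to 0.22). Rbl2 was lower by -0.15 (-0.22 to -0.08) and E2f4 higher by 0.18 (0.05 to 0.32) in CCA, and the intervals of both included 0 in CCANT. With classes from all UMIs the E2f4 ratio of CCA included 0 as well, at 0.13 (-0.05 to 0.31).

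E2f7 had 0 UMIs in this class of control, 7 in CCA and 10 in CCANT, no cell holding more than 1. Against the 3 counts that a count of 0 allows in the control sum, the counted UMIs of E2f7 made it at least 3.53-fold higher in CCA and 5.24-fold in CCANT. The exact intervals, which also cover the counting error of the 7 and 10 UMIs, began at 2.18-fold and 3.53-fold. E2f8 had 2, 9 and 8 UMIs, with log2 ratios of 2.77 (0.50 to 6.02) and 2.65 (0.33 to 5.93). Whether the cells with these E2f7 and E2f8 UMIs held cycle UMIs at full depth was not tested. Of the 8 members with at least 50 UMIs, none was 2-fold higher or lower in either library, where 3.66% (CCA) and 4.12% (CCANT) of all genes were at least 2-fold higher and 0.912% and 1.99% lower.

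The sex of the cells could be held fixed for part of this. Among cells without cycle UMIs that carried Y-linked transcripts, E2f1 was higher in CCANT (817 cells) than in control (2945 cells) by 0.42 (0.19 to 0.65) and Rb1 lower by -0.43 (-0.47 to -0.38), while the interval of E2f3 included 0 at -0.06 (-0.18 to 0.06). Within CCANT, Y-linked over Xist cells gave -0.09 (-0.15 to -0.04) for Rb1, 0.18 (0.03 to 0.32) for E2f3 and -0.08 (-0.34 to 0.17) for E2f1. The interval of E2f3 in Y-linked cells overlapped that in all cells without cycle UMIs.

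Rb1 spans 142 kb (chr14:73183673-73325822, minus strand) and intronic reads were counted. Genes of at least 100 kb had a median ratio of -0.02 in CCA and -0.04 in CCANT in the same cells, and 8.87% and 13.1% of them lay below Rb1.

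In the S class, E2f1 and Rbl1 stood well above cells without cycle UMIs, also with classes from all UMIs. In CCA, E2f1 went from 10.4 CPM without cycle UMIs to 91.7 in the S class, a log2 ratio of 3.13 (2.93 to 3.33). In CCANT it went from 11.9 to 85.2, a ratio of 2.84 (2.55 to 3.12). After thinning, 42.8% of CCA cells in the S class had an E2f1 UMI against 7.50% of cells without cycle UMIs, and the share was 0.372% in ganglion-like cells outside the table. The 12 control cells of the S class differed from this: they held 2 E2f1 UMIs, or 6.59 CPM (0.80 to 23.8), and 1 Rbl1 UMI.

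E2f1 followed the S UMIs: it was as high in the S-G2/M class, at 98.4 in CCA and 99.9 in CCANT, and stood at 8.44 and 16.1 in the G2/M class. The G2/M class over the S class gave -3.44 (-4.12 to -2.83) in CCA and -2.40 (-3.35 to -1.57) in CCANT. E2f3 followed a flatter course in CCA, 30.8, 75.8, 125 and 40.0 CPM from the class without cycle UMIs through S and S-G2/M to G2/M. E2f2 stood at 6.41 in the S class, peaked at 43.1 in the S-G2/M class and was still 13.2 in G2/M, against 1.79 without cycle UMIs. After thinning, however, 0.658% of CCA cells in the S class (1 of 152) had an E2f2 UMI against 1.35% of cells without cycle UMIs. In CCANT these shares went the other way, at 7.81% (5 of 64) against 1.54%. No order of the S class and cells without cycle UMIs is therefore read for E2f2. In CCANT the peaks of E2f2 and E2f3 lay in the same class, at 37.5 and 136 CPM.

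Tfdp1 had the course of E2f3, at 16.2, 56.3, 108 and 21.6 CPM in CCA and 17.1, 46.3, 111 and 31.0 in CCANT. Its higher level in the G2/M class than without cycle UMIs was lost with classes from all UMIs. The log2 ratio moved from 0.415 to 0.005 (-0.498 to 0.472) in CCA and from 0.859 to -0.092 (-1.011 to 0.696) in CCANT. E2f4 showed no such course: its levels lay between 14.3 and 18.0 in the CCA classes and between 13.8 and 21.1 in CCANT, and each interval of a ratio over cells without cycle UMIs included 0. With classes from all UMIs, that of the S-G2/M class of CCA did not, at 0.51 (0.13 to 0.87).

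The repressors E2f7 and E2f8 differed from E2f1 in their levels in the S and G2/M classes. E2f7 stood at 0.13, 11.1, 112 and 30.4 CPM along the 4 classes of CCA, and at 0.20, 8.18, 103 and 18.6 in CCANT. With classes from all UMIs, the ratio of E2f7 in the G2/M class over cells without cycle UMIs in CCA moved from 7.85 (6.74 to 9.21) to 4.88 (3.27 to 6.74). E2f8 stood at 0.17, 3.34, 64.9 and 45.1 in CCA, and at 0.16, 2.73, 70.8 and 44.7 in CCANT. Both were highest in the S-G2/M class. E2f8, unlike E2f1, was higher in the G2/M class than in the S class, by 3.75 (2.90 to 4.75) in CCA and 4.04 (2.56 to 5.99) in CCANT. E2f7 gave 1.45 (0.89 to 2.03) in CCA for the same comparison, and in CCANT, with 15 and 12 UMIs, 1.19 (-0.01 to 2.41). The ratio of the G2/M class over the S class was not read with classes from all UMIs.

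The 3 pocket proteins differed from each other. Rbl1 (p107) stood at 11.2, 85.3, 136 and 69.0 CPM in CCA and at 11.4, 72.9, 142 and 48.4 in CCANT, so that its level was above that of cells without cycle UMIs in every class with them. With classes from all UMIs, its G2/M class ratio moved from 2.62 to 1.16 (0.74 to 1.55) in CCA and from 2.09 to 1.06 (0.33 to 1.71) in CCANT. Rb1 was slightly above its level in cells without cycle UMIs in the S class, at 308 against 286 in CCA (0.11, 0.02 to 0.20) and 333 against 274 in CCANT (0.28, 0.14 to 0.41), and lower in the G2/M class, at 161 and 176. With classes from all UMIs of a cell, the S class ratio of CCANT was -0.03 (-0.11 to 0.04), so that the difference there was lost, and that of CCA was 0.10 (0.03 to 0.16). The ratio of the G2/M class over cells without cycle UMIs was -0.83 (-0.97 to -0.69) in CCA and -0.64 (-0.89 to -0.40) in CCANT. Genes of at least 100 kb had a median of -0.32 and -0.27 in that comparison, and 26.0% and 31.6% of them lay below Rb1. Rbl2 (p130), the pocket protein of resting cells, lay between 39.7 and 49.5 in the CCA classes and between 36.1 and 52.5 in CCANT, with every interval of a ratio including 0.

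**Figure D2:**
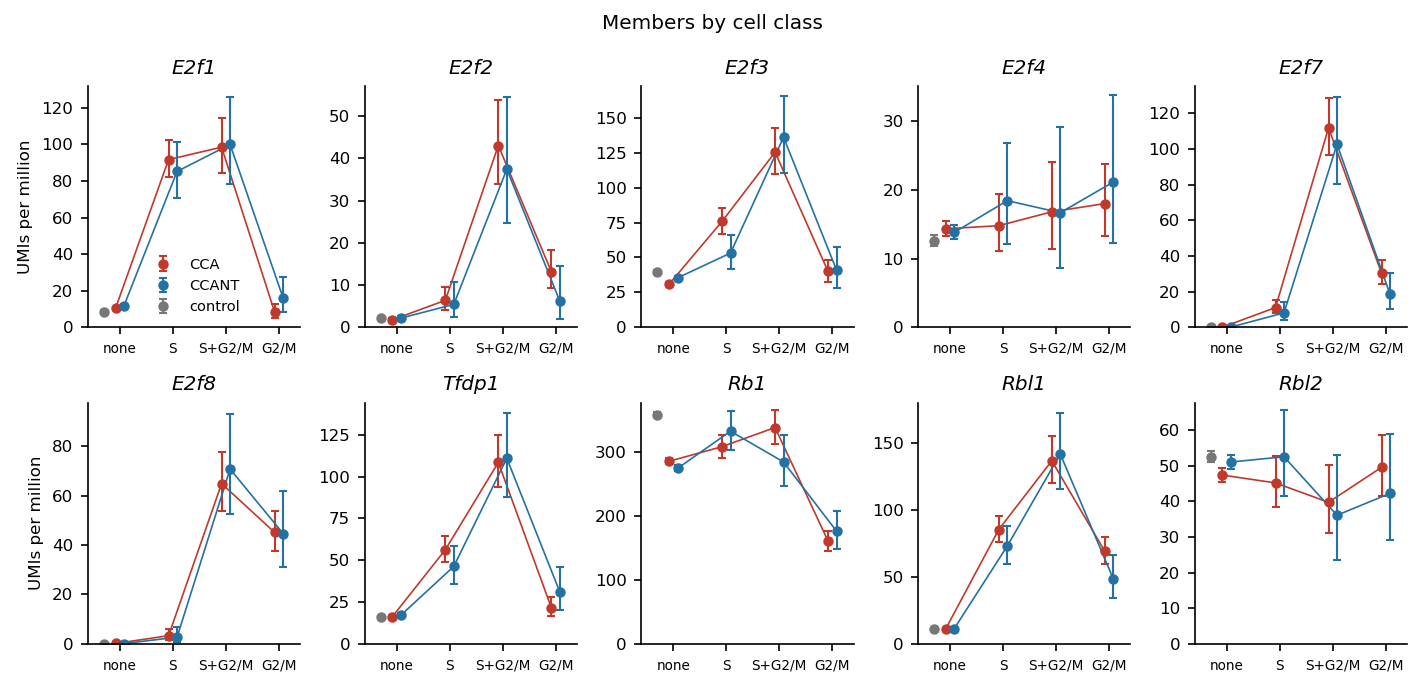
CPM (linear axes from 0) of the 10 genes in the 4 cell classes of CCA and CCANT, with control cells without cycle UMIs at the left and exact 95% Poisson intervals. E2f1 is high in S and S-G2/M and low in G2/M, E2f7 and E2f8 peak in S-G2/M, Rbl1 is high in all 3 classes, and E2f4 and Rbl2 are flat.

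Glial, rod and depth measures also differed between these classes. Müller glia markers stood at 24479 CPM in CCA cells without cycle UMIs and at 22762, 15991 and 8350 in the S, S-G2/M and G2/M classes. In CCANT they stood at 25387, 23384, 16864 and 11263. Rod markers stood at 1074, 867, 785 and 1473 in CCA, and the median UMI count per cell was 29564 in the S-G2/M class against 20956. Their part in the levels above was not tested.

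In the S class, 5 of the 8 members with at least 50 UMIs were at least 2-fold higher in CCA (E2f1, E2f2, E2f3, Rbl1 and Tfdp1) beside 4.20% of all genes, and 4 of 8 in CCANT beside 4.96%. E2f2 is counted here by its CPM in both libraries, although no order of these classes is read for it above. With classes taken from all UMIs of a cell without thinning, which puts 362 CCA and 227 CCANT cells in the S class, this was 2 of 8 in each library, E2f1 at 1.69 (1.46 to 1.91) and Rbl1 at 1.78 (1.56 to 2.00) in CCA. E2f2 and E2f3 then stood in CCANT at -0.41 (-1.53 to 0.56) and 0.10 (-0.12 to 0.31), and E2f2 in CCA at 0.47 (-0.33 to 1.23). In the S-G2/M class, 7 of 10 were higher in both libraries, namely these 5 with E2f7 and E2f8, beside 11.8% of all genes in CCA and 13.2% in CCANT. E2f7 and E2f8 reached 50 UMIs there only through the S-G2/M class itself. In the G2/M class, 4 of 10 were higher in CCA (E2f2, E2f7, E2f8 and Rbl1), beside 11.9%, and 2 of 8 in CCANT, beside 12.1%, a count that was 4 with a class limit of 5 and 1 with classes from all UMIs. In CCA, E2f7 and E2f8 again passed only through the G2/M class. In CCANT both had under 50 UMIs and were left out of the 8, at log2 ratios of 6.57 and 8.15. No member was at least 2-fold lower in any class. Of all genes, 672 of 15344, 2146 of 15347 and 2201 of 15410 were so in the S, S-G2/M and G2/M classes of CCA. In CCANT these were 893 of 15098, 2265 of 15141 and 2271 of 15147. Median log2 ratios over the members were 1.55, 2.99 and 0.40 in CCA and 0.95, 2.88 and 0.53 in CCANT, and the median over all genes lay between -0.08 and 0.01. The classes were picked by UMIs of cell cycle genes. The counts and medians of members by class are therefore not independent of how the cells were picked and do not test E2F activity.

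The members were also read in finer bins of S and G2/M UMIs. Among CCA cells with under 3 G2/M UMIs, E2f1 went from 10.5 CPM with 0 Mcm UMIs to 11.5 with 1, 22.0 with 2, 60.4 with 3 to 5, 109 with 6 to 9 and 148 with 10 or more. Rbl1 went from 11.1 to 143 over the same bins, and Rb1 stayed between 277 and 319. E2f7 reached 20.6 in the bin of 6 to 9 Mcm UMIs, where E2f8 was at 6.87.

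Binned by Mki67 and Top2a UMIs, E2f1 in CCA went from 76.2 CPM with 3 to 9 UMIs to 52.9 with 10 to 19 and 12.2 with 20 or more. Opposite to it, E2f8 went from 26.9 to 68.0 and 69.9, and Rbl1 from 68.1 to 89.4 and 123. In CCANT the same bins held 27, 12 and 15 cells, in which E2f1 stood at 89.2, 62.5 and 15.8 and E2f8 at 21.5, 88.1 and 75.6. Rbl1 stood there at 62.8, 134 and 98.4, highest in the middle bin.

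**Figure D3:**
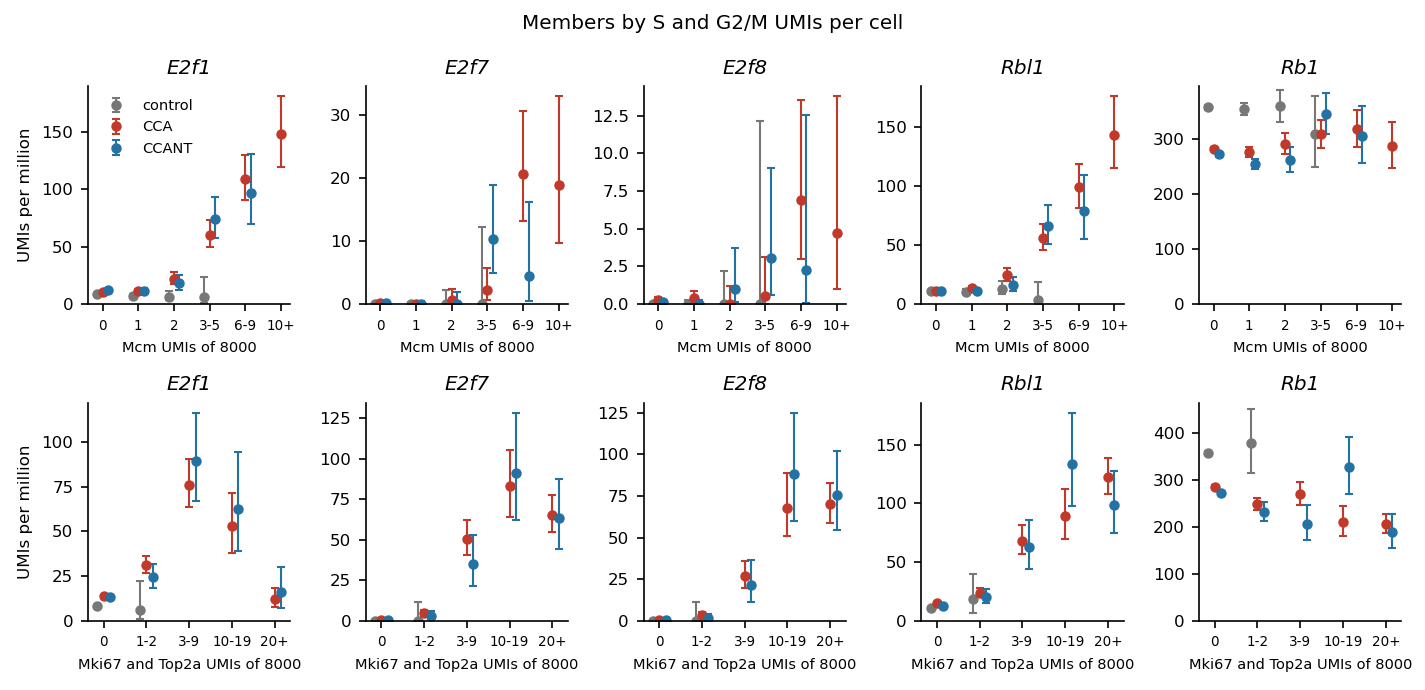
CPM (linear axes from 0, exact 95% Poisson intervals) of 5 genes in a row by Mcm UMIs per cell (upper row, cells with under 3 Mki67 and Top2a UMIs) and by Mki67 and Top2a UMIs per cell (lower row), after thinning to 8000. E2f1 reaches 148 at 10 or more Mcm UMIs in CCA and 12.2 at 20 or more Mki67 and Top2a UMIs.

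How much of each transcript lay in cycling classes differed widely. In CCA these classes held 8.27% of cells and 9.81% of all UMIs, but 96.7% of E2f7 UMIs (323 of 334) and 92.3% of E2f8 UMIs (251 of 272). E2f2 followed with 50.9%, Rbl1 with 44.9%, E2f1 with 38.8%, Tfdp1 with 26.7% and E2f3 with 20.6%. The shares of E2f4 (11.1%), Rbl2 (9.44%) and Rb1 (9.28%) were near that of all UMIs.

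In CCANT, where the classes held 3.66% of cells and 4.25% of UMIs, E2f7 and E2f8 again stood at 90.2% and 90.1%, Rbl1 at 24.4% and E2f1 at 20.5%. The remaining UMIs of E2f1 came from cells with few or no cycle UMIs, where its level differed between libraries as given above.

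**Figure D4:**
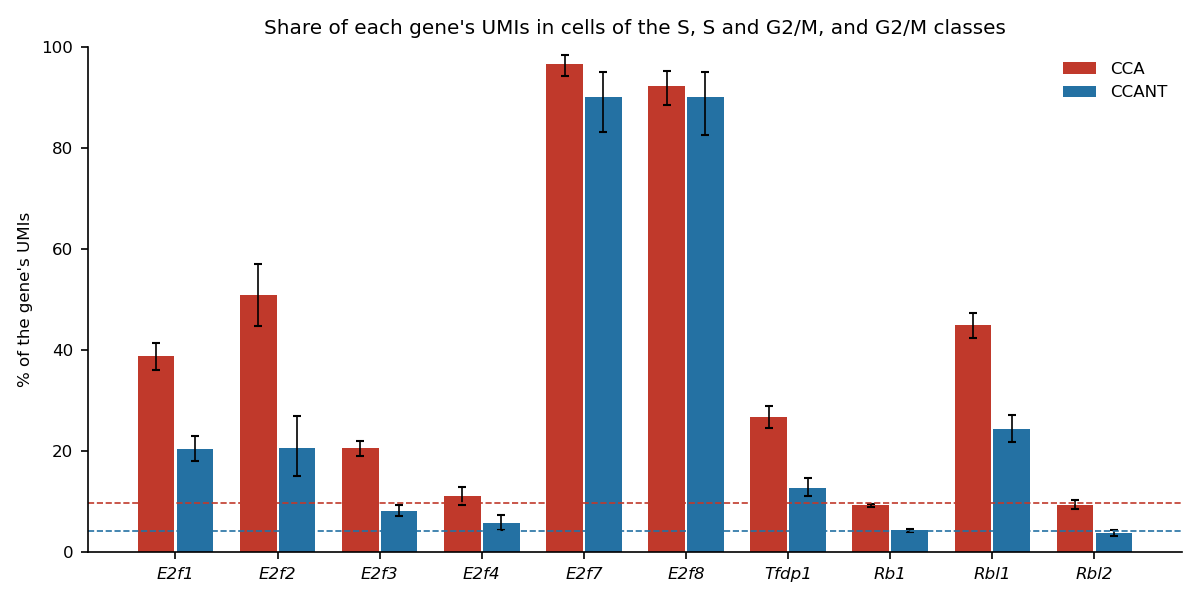
Percent of each gene's UMIs (axis 0 to 100) that lay in cells of the S, S-G2/M and G2/M classes in CCA and CCANT, with exact 95% binomial intervals and lines at the share of all UMIs (9.81% and 4.25%). E2f7 and E2f8 stand at 90.1% or more, and Rb1, Rbl2 and E2f4 near the lines.

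CCANT and CCA differed over all cells for E2f7 (-1.34, -1.67 to -1.03), E2f8 (-1.20, -1.54 to -0.86) and Rbl1 (-0.46, -0.57 to -0.34), and by less for E2f1 (-0.18, -0.29 to -0.06), Rb1 (-0.05, -0.08 to -0.02) and Rbl2 (0.11, 0.04 to 0.17). Within the S, S-G2/M and G2/M classes the interval of each ratio included 0 with 3 exceptions. These were E2f3 in the S class (-0.51, -0.89 to -0.14), Rb1 in the S-G2/M class (-0.25, -0.49 to -0.02) and Rbl1 in the G2/M class (-0.51, -1.05 to -0.01). Wide intervals remain at these cell numbers, such as -1.61 to 0.10 for E2f7 in the G2/M class. In cells without cycle UMIs, E2f3 was higher in CCANT than in CCA by 0.20 (0.10 to 0.30) and E2f1 by 0.19 (0.02 to 0.36), Rbl2 was higher by 0.11 (0.03 to 0.19), and Rb1 was at -0.06 (-0.09 to -0.02). CCA cells carried Xist and CCANT was mixed in sex, and among Xist cells of both (1273 and 2434) the intervals of Rb1 (0.00, -0.04 to 0.04) and Rbl2 (0.07, -0.03 to 0.17) included 0, with E2f1 at 0.21 (0.01 to 0.41) and E2f3 at 0.13 (0.01 to 0.24).

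Cells without cycle UMIs were also split by Cdkn1b, the transcript under knockdown. The split used Cdkn1b UMIs after thinning to 8000, so that cells with 0 can hold Cdkn1b UMIs at full depth. In CCA, cells with 0 thinned Cdkn1b UMIs (1299) held E2f1 at 11.7 CPM and cells with at least 2 (361) at 8.01, a log2 ratio of 0.55 (0.15 to 0.96). In control the ratio was -0.06 (-0.37 to 0.25), and in CCANT 0.08 (-0.23 to 0.41). E2f1 was the single member in CCA whose interval excluded 0, and Rb1 gave 0.05 (-0.02 to 0.12) there. In control, Rb1 gave -0.07 (-0.11 to -0.02) and Rbl2 -0.16 (-0.28 to -0.03).

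Other genes of the E2F network were read in the same classes. Of 11 other E2F, DP and DREAM genes (DREAM being the repressor complex that Rbl2, E2f4 and the MuvB core form), 5 were at least 2-fold higher in the S class of CCA, 7 in the S-G2/M class and 7 in the G2/M class, beside 4.20%, 11.8% and 11.9% of all genes. In CCANT these were 4 of 10, 8 of 11 and 8 of 11, beside 4.96%, 13.2% and 12.1%. These counts by class, too, are not independent of how the cells were picked. Between libraries 1 of 11 (Foxm1, a driver of G2/M genes) was higher, by 3.38 in CCA and 2.04 in CCANT, beside 5.81% and 5.55% of all genes. In cells without cycle UMIs 0 of 11 were, beside 3.66% and 4.12%.

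Along S, S-G2/M and G2/M in CCA, Foxm1 gave log2 ratios of 1.18, 6.05 and 6.69, and Mybl2 (B-Myb) 1.30, 4.30 and 0.93. Mybl1 gave 1.94, 3.60 and 3.21, and the MuvB subunits Lin54 and Lin9 gave 1.70, 2.97 and 2.10, and 1.65, 2.76 and 2.21. The subunits Lin37 and Lin52 reached 1.11 and 1.21 in G2/M, and Rbbp4 reached 1.56 in S-G2/M. The repressor E2f6 peaked there too, at 1.60. E2f5, a relative of E2f4, was the reverse of E2f1, at -0.57, -0.32 and 1.71, and Tfdp2 lay between 0.54 and 0.85.

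Of 20 G1/S genes known as E2F targets, 20 of 20 were at least 2-fold higher in the S class and in the S-G2/M class of CCA, and 16 of 17 in the G2/M class. In CCANT these were 16 of 16, 19 of 19 and 14 of 15. The shares of all genes were 4.20%, 11.8% and 11.9% in CCA and 4.96%, 13.2% and 12.1% in CCANT. The S and S-G2/M classes were picked by UMIs of Mcm2 to Mcm7, which are themselves genes for DNA replication. These counts are therefore not independent of how the cells were picked and do not test E2F activity. In the S class of CCA, Dtl (6.55) and Chaf1b (6.24) had the highest log2 ratios, and Ccna2 (1.39) and Rrm1 (2.18) the lowest. In the G2/M class Ccna2 (7.60) and Rrm2 (5.52) were highest, and Slbp (0.74) was lowest.

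Between libraries, 15 of these 20 were at least 2-fold higher in CCA and 10 in CCANT, led in both by Chaf1b (5.31 and 4.12), beside 5.81% and 5.55% of all genes. Chaf1b (10 UMIs in control), Rrm2 (24), Cdc6 (25), Dtl (32), Cdt1 (49) and Uhrf1 (49) reached the UMI limit of this count only through the treated libraries. In cells without cycle UMIs, 4 of 18 were at least 2-fold higher in CCA, led by Rrm2 (2.68) and Dtl (1.50), and 0 of 17 in CCANT, where Uhrf1 (0.86) and Dtl (0.65) were highest. The shares of all genes there were 3.66% and 4.12%. The 4 genes counted in CCA (Rrm2, Dtl, Uhrf1 and Cdt1) had 13, 30, 39 and 44 UMIs in control and 55, 56, 67 and 59 in CCA. They too reached the UMI limit only through the treated library.

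Of the 6 cyclins and kinases that act on pocket proteins, 1, 4 and 0 were at least 2-fold higher in S, S-G2/M and G2/M of CCA. In CCANT these were 1, 3 and 0. The shares of all genes were 4.20%, 11.8% and 11.9%, and 4.96%, 13.2% and 12.1%. In G2/M, 1 of the 6 was at least 2-fold lower in each library. Ccnd1 stood at 126, 235, 262 and 167 CPM from the class without cycle UMIs to G2/M in CCA. Cdk2 was 2.17 and 2.88 higher on the log2 scale in the S and S-G2/M classes of CCA, and Cdk4 0.90 and 1.51. Ccnd3 was lower in the G2/M class, by -1.39. Ccnd2 was higher in CCANT than in control by 2.03, also in cells without cycle UMIs (1.94), and by 0.66 in CCA. Cdk6 lay between -0.15 and 0.38 in every comparison of CCA.

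Genes most like a member were sought over the 12 sums of a library and class with at least 20 cells, among 13724 genes, by Pearson's r of log2(CPM + 1), a description in which the sums share libraries and depth. E2f1 was closest to Exosc7 (r = 0.988), Pola2 (0.985), which encodes a DNA polymerase alpha subunit, and Paxip1 (0.980). E2f7 was closest to Tk1 (0.997), the thymidine kinase of S phase, Snrpd1 (0.995) and Cenpu (0.995). E2f8 was closest to Sae1 (0.999), Shcbp1 (0.997) and Melk (0.997). Rb1 was closest to Vipr2 (0.985), Cadps (0.985) and Grid1 (0.977), and Rbl2 to Ltbp1 (0.960), Nfia (0.958) and Zfp788 (0.945).

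The members were also read in cells that passed the quality limits but were not in the table, clustered and named by markers. In order of level, Rb1 stood at 300 CPM in Müller glia-like cells (5337), 245 in T and NK-like cells (131), 216 in rod-like cells (4701), 215 in pericyte-like cells (193), 196 in endothelial-like cells (103) and 155 in microglia and macrophage-like cells (581). It stood at 126 in astrocyte-like, 118 in bipolar-like, 117 in cone-like, 108 in amacrine-like, 94.1 in horizontal-like and 79.2 in ganglion-like cells. The intervals overlapped between rod-like, pericyte-like and endothelial-like cells and between astrocyte-like, bipolar-like and cone-like cells. These are sums over 3 libraries that hold the types in different shares. Among named types with enough cells to be read in a library, Müller glia-like cells were highest in each, at 338, 285 and 272 in control, CCA and CCANT. The types below them changed places between libraries. Not read by library were endothelial-like and horizontal-like cells in any, and T and NK-like cells in CCA (32) and CCANT (24). Also left out were astrocyte-like cells in control (15) and CCA (33) and pericyte-like cells in CCANT (40). The rod-like cells were 2 clusters that differed. The larger (3436 cells, a median of 5023 UMIs) had Müller glia markers at 1563 CPM, Rb1 at 137 and E2f1 at 1.49. The smaller (1265 cells, 22780 UMIs), with tdTomato among its leading genes, had these markers at 20382, Rb1 at 265 and E2f1 at 12.5, close to Müller glia-like cells, so the rod-like sums do not give the levels of rods alone. E2f1 was at 12.6 in Müller glia-like cells and under 3 in bipolar-like, cone-like, amacrine-like, ganglion-like and horizontal-like cells. E2f3 was highest among named neurons in bipolar-like cells, at 66.8. Rbl2 and E2f4 varied less, with their highest levels in T and NK-like cells, at 111 and 39.9 against 50.3 and 13.9 in Müller glia-like cells.

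**Figure D5:**
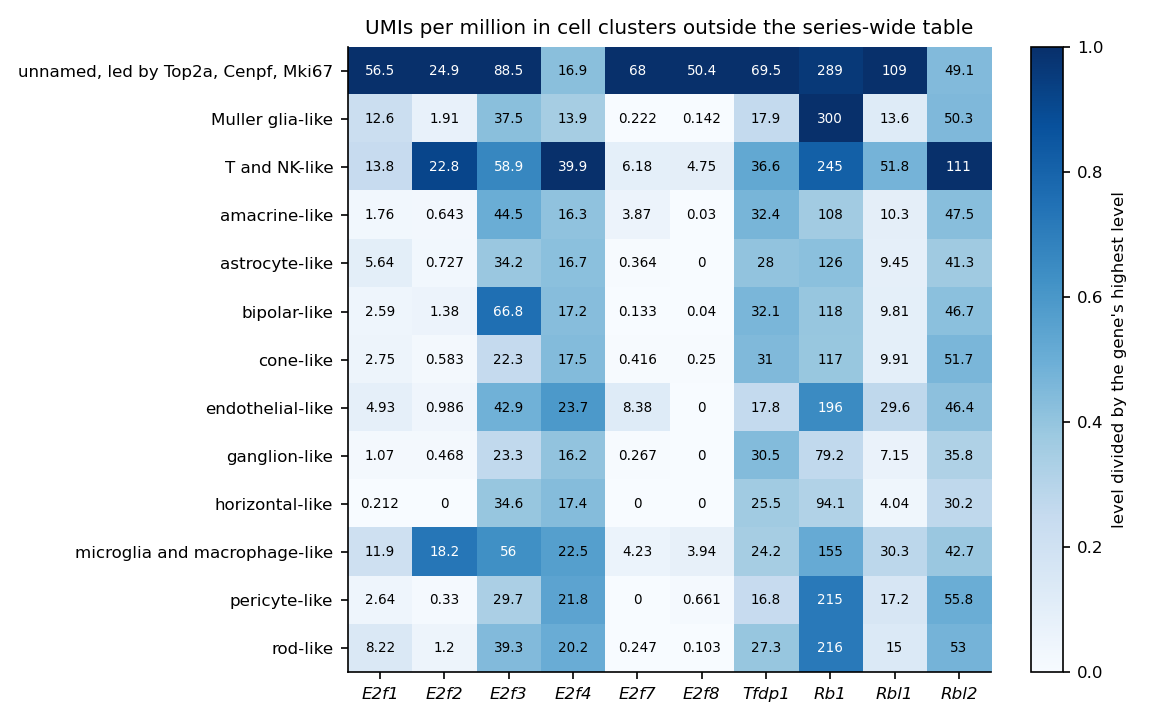
CPM of the 10 genes, printed in each cell, in cells outside the table grouped by marker-named clusters, 3 libraries summed. Colour scales each gene to its own highest level. The rod-like row sums 2 clusters, 1 of them with Müller glia markers at 20382. Among named types Rb1 is highest in Müller glia-like cells (300), and E2f7 and E2f8 are highest in an unnamed cluster led by Top2a, Cenpf and Mki67 (68.0 and 50.4).

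Cells outside the table come from the same 3 libraries and are no replicate of a group. The comparisons between libraries above did not use them. In Müller glia-like cells without cycle UMIs (1560 in control, 691 in CCA and 1475 in CCANT), E2f1 was higher by 0.51 (0.24 to 0.77) in CCA and 0.48 (0.25 to 0.70) in CCANT. Rb1 was lower by -0.27 (-0.32 to -0.22) and -0.33 (-0.37 to -0.29), and E2f3 by -0.30 (-0.45 to -0.16) and -0.28 (-0.39 to -0.16). E2f1, Rb1 and E2f3 thus departed in the same direction as inside the table. E2f7 had 2, 5 and 5 UMIs and E2f8 1, 2 and 2 in control, CCA and CCANT, and the intervals of both included 0 in both libraries. Rbl1 gave -0.19 (-0.46 to 0.07) and -0.10 (-0.31 to 0.10), and E2f4 0.03 (-0.21 to 0.27) and 0.11 (-0.08 to 0.30).

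The unnamed cluster, which held none of the 8 Müller glia markers at 2-fold or more over other cells, was read in the same classes. In its CCA cells (32, 88 and 94 in S, S-G2/M and G2/M), E2f1 stood at 156, 86.8 and 8.24 CPM and E2f8 at 21.0, 83.6 and 44.7. E2f7 stood at 46.1, 128 and 39.7, and Rb1 at 282, 376 and 216. E2f1 was again low in the G2/M class, and Rb1 lowest there. Unlike inside the table, E2f1 stood highest in the S class of this cluster and E2f7 no lower in S than in G2/M. The cluster held only part of the S class outside the table, however. The 51 CCA cells of the S class in Müller glia-like clusters had E2f7 at 1.46 CPM (2 UMIs) and E2f1 at 89.8.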

How the data were processed

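Single-cell 3′ RNA-seq libraries of sorted tdTomato+ cells were measured for control, CCA and CCANT, 1 library each. The authors counted reads with Cell Ranger 6.1.1 on mm10 with tdTomato and GFP added, introns included, and deposited raw UMI counts per cell for each library, with a counts table of the whole series whose cells define the cells used. Per the methods, the authors dropped cells under 2000 features, over 100000 UMIs or over 15% mitochondrial transcripts, required tdTomato, and removed doublets and contaminating clusters with Seurat and DoubletFinder. No doublet caller was run again.

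The members, gene lists and marker lists were chosen with earlier results of these data known. No gene of a list was missing from the matrices, and 0 columns of other samples were left aside. Counts of each gene were summed over the cells of a class and divided by the UMIs of all genes (CPM). Classes were taken after thinning each cell to 8000 UMIs, which left out 36, 103 and 53 shallower cells. Depth was 95458516, 83266870 and 70825549 UMIs in the cells of control, CCA and CCANT. Ratios have exact intervals from the conditional binomial, shares exact binomial ones, and a count of 0 allows up to 3 counts. Because each group has 1 library, no p-value was computed and genes were counted by a 2-fold rule with at least 50 UMIs over both sums.

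All 10 members, the other E2F, DP and DREAM genes, the 2 highest and 2 lowest G1/S genes of a comparison (or the highest, where named alone) and the 3 genes most like E2f1, E2f7, E2f8, Rb1 and Rbl2 are named by rule. Cells outside the table were clustered with scanpy 1.11.5 and Leiden (15 neighbours, 20 principal components, resolution 0.5) and named from at least 3 markers. The ratio code was tested on simulated data. Alternatives were other scalings, class limits and cell filters, and leaving out cells with Müller glia markers under 5000 CPM was added after seeing the data. Levels of 3′ counts were compared within a gene only.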

Additional observations from a re-analysis of the deposited data

Results flagged for a closer look

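Cells with cycle UMIs were also present among cells that passed the quality limits but were not in the table of the series. Of those with at least 8000 UMIs, 6.57% in CCA (334 of 5086) and 2.91% in CCANT (175 of 6010) fell in the S, S-G2/M or G2/M class, against 0.887% in control (42 of 4733).

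The cluster led by Top2a, Cenpf and Mki67, in which E2f7 and E2f8 had their highest levels, held 277 cells of CCA and 103 of CCANT outside the table, and 0 of control. These values stand out because no comparison of the table's cells used them and the control library was lower. The authors required tdTomato and removed doublets and contaminating clusters, so cells outside the table include those dropped at these steps. The cluster had a median of 30327 UMIs per cell, against 20710 and 20722 in the table's cells of CCA and CCANT. Whether these cells are Müller glia, and at which step they were dropped, was not tested.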

How the results depend on the processing

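No paired analysis was possible because each group has 1 library, and for the same reason no library could be left out. Of 892 values of single members under alternatives, 817 stayed inside the counting interval of the reported value, 70 moved out of it, and 5 turned the direction of a value whose interval excluded 0. With classes from all UMIs these were E2f2 (-0.408) and Rb1 (-0.034) in the S class of CCANT and Tfdp1 in its G2/M class (-0.092), which a class limit of 2 also turned (-0.037). In Y-linked cells it was E2f3 over all cells of CCANT against control (0.006). In all, 32 values changed sign. Of the medians over members, 93 of the values under alternatives kept within the counting intervals and 7 moved, and of the member counts 195 stayed within 1.5 times and 5 moved. These counts include those of members at least 2-fold lower, which were 0 in every comparison. The counts of members higher in cells without cycle UMIs were 0 as well. All 5 that moved were counts of members at least 2-fold higher. For the S class of CCA the median was 0.899 with a class limit of 2 UMIs, 1.83 with 5 and 0.520 with classes from all UMIs, which also gave 2 members at least 2-fold higher. For the S class of CCANT it was 1.48 with a limit of 5 and 0.176 with classes from all UMIs, again with 2 members. The median of the S-G2/M class of CCA was 2.67 with classes from all UMIs, and that of the G2/M class of CCA 0.837 with a limit of 5. The count of members higher in the G2/M class of CCANT was 1 without the 5% of cells with most UMIs, 4 with a limit of 5 and 1 with classes from all UMIs. With all genes of at least 1 UMI, between 12% and 38.3% of genes were at least 2-fold higher. Median-of-ratios scaling shifted ratios by between -0.057 and 0.074. The G2/M class of CCANT (28 cells) and the control classes with cycle UMIs (12, 1 and 1 cells) limit what can be read there.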

Other observations

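E2f7 was also found in cells outside the S, S-G2/M and G2/M classes, with little or no E2f8. In 1 amacrine-like cluster of 1221 cells outside the table it had 226 UMIs, or 6.68 CPM (5.84 to 7.61), against 1 UMI of E2f8. The UMIs were concentrated: 56 cells held at least 1, 28 held at least 3 and the highest cell held 14, and none of these UMIs lay in the 3 cells of the cluster that fell in one of these classes. By library, amacrine-like cells held 121 E2f7 UMIs in control, 60 in CCA and 54 in CCANT (6.22, 2.73 and 2.80 CPM), so that control was highest. After thinning, 1.50% of amacrine-like cells had an E2f7 UMI at a median of 23610 UMIs per cell, against 0.179% of bipolar-like cells at 15671.

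Endothelial-like cells (103) held 17 E2f7 UMIs, or 8.38 CPM (4.88 to 13.4), in 13 cells and 0 of E2f8, and none of them lay in cells of these classes. In microglia and macrophage-like cells (581) both repressors had UMIs, E2f7 with 60, 29 of them in cells of these classes, and E2f8 with 56, 40 of them in such cells. The E2f7 UMIs lay in 21 cells, 1 of which held 23, and those of E2f8 in 30 cells. These are sums over the cluster, and whether both lay in the same cells was not tested. These values were noted after they were seen.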
